A study of Mus musculus with 5 samples.

Results

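Immediate early genes are transcribed within minutes of a stimulus and need no new protein for it, and 10 of them were followed here in sorted luminal cells of the mouse mammary gland. They were *Fos*, *Fosb*, *Jun*, *Junb*, *Egr1*, *Atf3*, *Ier2*, *Ier3*, *Dusp1* and *Zfp36*, chosen by name among the 24319 genes of the expression table, and all 10 were in the table and passed the filter of a mean of at least 1 FPKM (fragments per kilobase of transcript, scaled to the mapped depth of the library) that 11481 genes passed. The study sequenced bulk RNA of 5 luminal libraries. Libraries Lum1, Lum2 and Lum3 carry the genotype label wild type, and Lum4 and Lum5 carry the label Brca1 knockout. The strain is labelled Mixed, which in the methods is a background of C57BL/6 and 129/Sv, and the methods describe the knockout as *MMTV-Cre; Brca1 fl/fl*, in which the MMTV promoter drives Cre in the mammary epithelium, in part of the colony together with a *Trp53* fl/+ or a *ROSA mT/mG* allele. Which of these alleles each library carried, and whether its mouse was virgin or pregnant, is not given in the sources used here. The text of the study speaks of luminal cells it sequenced as BRCA1-deficient, so each library is named here by its label.

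By the methods, the glands were minced, digested at body temperature with collagenase and hyaluronidase in a medium that held serum, insulin, EGF and hydrocortisone, passed through dispase, DNase and trypsin, depleted of blood and endothelial cells and sorted as DAPI- CD24Hi CD29Lo cells before lysis in TRIzol. The extraction protocol in the labels describes frozen tumors instead. No unsorted or undigested gland was measured, so a level in these libraries has no baseline from intact tissue beside it.

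The targeted gene did not separate the labels. *Brca1* was at 1.30, 1.32 and 0.234 FPKM in Lum1, Lum2 and Lum3 and at 1.20 and 1.34 FPKM in Lum4 and Lum5 (log2 fold change 0.27, standard error 0.38, limma adjusted p = 0.94), and a level over the whole gene does not show whether part of it was deleted. Luminal genes marked the cells in each library, with *Krt8* between 2240 and 3653 FPKM and *Epcam* between 570 and 1062 FPKM. Lum3 stood apart in mature luminal and proliferation markers. The 7 mature luminal markers summed to 470 FPKM there against 18.8 to 44.6 FPKM in the others. The 8 proliferation markers summed to 5.21 FPKM against 64.5 to 139.9 FPKM. The 8 luminal progenitor and alveolar markers summed to 13633 FPKM in Lum3 and to 28360 to 37975 FPKM in the others. Most of that sum was *Csn2*, at 10569 FPKM in Lum3 and 25327 to 31978 FPKM elsewhere. Of these 8 markers, 4 were lowest in Lum3 and 3 highest there. The 7 fibroblast markers summed to 109.6 FPKM in Lum2, 86.4 FPKM in Lum3 and 3.05 to 12.7 FPKM in the others. The 8 immune markers summed to 265.7 FPKM in Lum2, 54.2 FPKM in Lum3 and 4.93 to 8.24 FPKM in the others. In the 3 libraries labelled wild type these sums ran from 3.05 to 109.6 FPKM (fibroblast) and from 7.55 to 265.7 FPKM (immune), and in the 2 labelled Brca1 knockout from 3.86 to 12.7 FPKM and from 4.93 to 8.24 FPKM. Among these markers *Cd3e* was listed at 0 in Lum1 and Lum4, *Itgam* in Lum1 and *Pdgfrb* in Lum4, and the immune sum in Lum2 was mostly *Lyz2* (213 FPKM). The part of these cells in the results below was not tested, and in bulk samples fewer cells of a type and less RNA per cell cannot be told apart.

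FOS and JUN proteins pair through leucine zippers to form AP-1, a transcription factor that answers growth factors, stress and tissue injury. EGR1 and ATF3 are DNA binding factors switched on by the same MAP kinase and stress signals, IER2 and IER3 are short-lived proteins named for the same early response, DUSP1 is a phosphatase that switches MAP kinases off again, and ZFP36 binds AU-rich elements of early mRNAs and speeds their decay. Enzymatic dissociation of tissue is a known inducer of this set, which is why single-cell and sorted-cell studies watch it.

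*Fos*, *Fosb*, *Dusp1* and *Zfp36* are shown by the sequence just upstream of their transcription start, because they stand for the different patterns described below. The former pair was highest in Lum3 and varied widely, *Dusp1* varied least, and *Zfp36* was highest in Lum5. Each run is the 250 bases before the start of the RefSeq gene on its own strand in build GRCm38.p6, the assembly also called mm10, at chr12:85473640-85473889 (plus strand, *Fos*), chr7:19310046-19310295 (minus strand, *Fosb*), chr17:26508473-26508722 (minus strand, *Dusp1*) and chr7:28379229-28379478 (minus strand, *Zfp36*). Capitals mark the motifs searched on both strands, which were TGACG (the core of the cAMP response element), TGACGTCA (the whole element, which contains the core on each strand), TGACTCA and TGAGTCA (AP-1), GCGNGGGCG (EGR), the CArG box of serum response factor, and TATAAA.
Fos: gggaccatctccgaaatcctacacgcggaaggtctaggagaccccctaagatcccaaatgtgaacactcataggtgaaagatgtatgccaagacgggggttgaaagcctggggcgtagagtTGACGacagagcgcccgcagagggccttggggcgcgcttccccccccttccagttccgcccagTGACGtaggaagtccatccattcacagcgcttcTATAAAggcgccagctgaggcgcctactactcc
Fosb: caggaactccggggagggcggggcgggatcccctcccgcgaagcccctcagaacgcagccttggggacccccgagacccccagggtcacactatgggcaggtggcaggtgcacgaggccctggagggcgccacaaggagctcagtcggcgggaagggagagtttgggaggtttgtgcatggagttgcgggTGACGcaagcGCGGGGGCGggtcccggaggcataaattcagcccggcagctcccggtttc
Dusp1: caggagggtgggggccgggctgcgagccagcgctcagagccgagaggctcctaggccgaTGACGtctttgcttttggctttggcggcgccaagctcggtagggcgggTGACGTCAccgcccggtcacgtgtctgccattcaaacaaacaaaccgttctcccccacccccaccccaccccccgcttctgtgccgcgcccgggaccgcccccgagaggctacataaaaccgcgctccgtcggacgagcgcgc
Zfp36: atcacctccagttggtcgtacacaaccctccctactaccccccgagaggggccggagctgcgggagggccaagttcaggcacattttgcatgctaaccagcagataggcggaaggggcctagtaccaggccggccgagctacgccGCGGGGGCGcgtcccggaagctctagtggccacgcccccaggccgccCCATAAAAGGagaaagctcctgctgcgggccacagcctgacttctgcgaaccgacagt

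A promoter entry was found for 8 of the 10 members, all but *Egr1* and *Ier2*. The TGACG core was in 5 of the 8 (*Fos*, *Fosb*, *Junb*, *Atf3* and *Dusp1*) and in 17.8% of the 32851 promoters of the table. In *Fos* it began 129 and 66 bases before the start, with a TATAAA 33 bases before it. *Dusp1* had a TGACG 191 bases before the start and was the only one of the 8 with the whole element TGACGTCA, 143 bases before the start, which 1.55% of all promoters held. *Zfp36* was the only one with a CArG box, 58 bases before the start (1.47% of all promoters), and it shared the EGR motif with *Fosb* (4.70% of all promoters). None of the 8 held TGACTCA or TGAGTCA (AP-1) in this window, against 4.46% of all promoters. Other forms of the AP-1 site and sites farther upstream were not searched. A match is a description of letters and not of a bound site. The gene spans given below are from another annotation, GENCODE M21. Those of *Fosb*, *Dusp1*, *Zfp36*, *Atf3* and *Ier3* reach upstream of the RefSeq start used here.

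The members were among the more abundant mRNAs of the sorted cells. Their FPKM lay between 98.2 and 960 in single libraries, 9 of the 10 were among the 500 genes with the highest mean, and ranks by mean ran from 144 for *Fos* to 516 for *Ier3* among 24319 genes. The summed FPKM of the 10 was 3786, 2293 and 4330 in Lum1, Lum2 and Lum3 and 3298 and 3938 in Lum4 and Lum5, which is between 0.410% (Lum2) and 0.824% (Lum3) of all FPKM in a library. The per-library median of the members was 8.37 ± 0.48 in log2(FPKM + 1) (SD, n = 5). Lum2 stood lowest at 7.55, and the other libraries lay between 8.31 and 8.69. By the spacing of low FPKM values the libraries differed up to 4.78-fold in depth, with Lum1 and Lum4 the shallowest, and at least 716 fragments stood behind each member in each library, a counting error of at most 3.74%. That estimate is rough, because only 52.9% to 61.4% of low values lay within 0.15 of a whole fragment at the best-fitting depth. At a fixed depth chance gives 30%, and the higher chance share at a best-fitting depth was not computed.

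**Figure D1:**
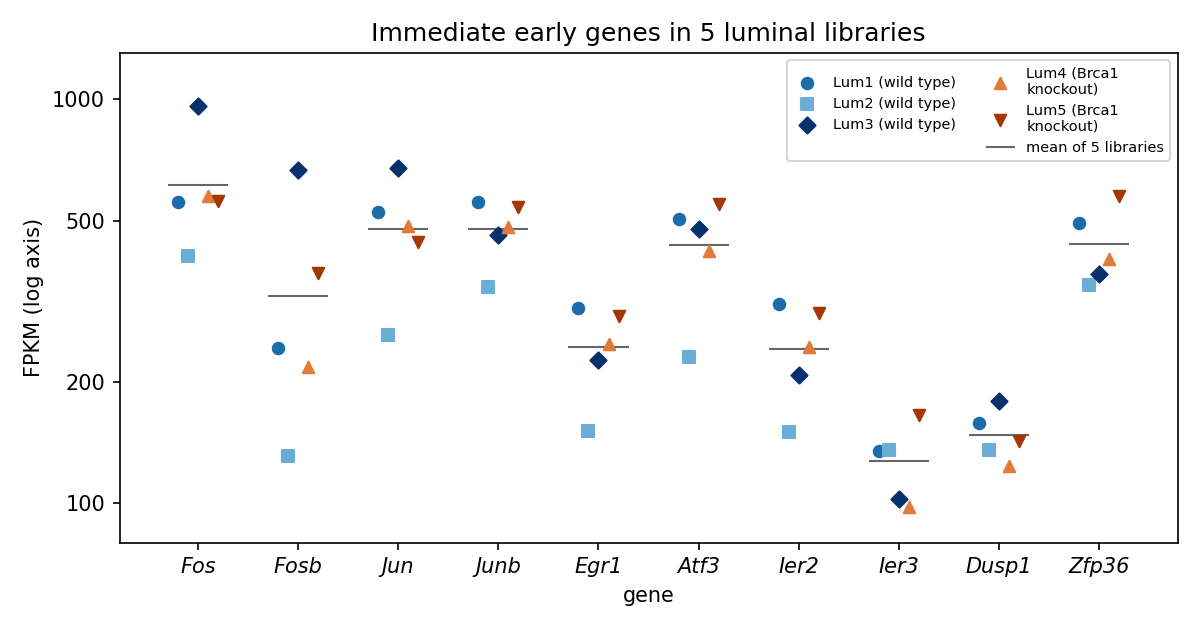
FPKM (log axis) of each of the 10 genes in the 5 libraries. Points are single libraries, blue shades for the label wild type and orange shades for the label Brca1 knockout, and the grey line is the mean of the 5. Lum2 was the lowest library for 8 of the 10 genes and Lum3 the highest for *Fos*, *Fosb*, *Jun* and *Dusp1*.

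*Fos* (ENSMUSG00000021250, chromosome 12 of mm10, 85473890 to 85477273, plus strand), which encodes the FOS subunit of AP-1, was the highest member. It was at 557, 409 and 960 FPKM in Lum1, Lum2 and Lum3 and at 577 and 560 FPKM in Lum4 and Lum5. Lum3 was 1.66 times the next library, Lum2 was the lowest, and the values of the 2 knockout-labelled libraries fell inside the range of the wild type-labelled ones. *Fosb* (ENSMUSG00000003545, chromosome 7, 19302696 to 19310051, minus strand), the paralogue of *Fos*, measured 243, 131 and 668 FPKM in Lum1, Lum2 and Lum3 and 217 and 371 FPKM in Lum4 and Lum5. It was the most variable member, with a ratio of 5.09 between the highest and the lowest library and an SD of 0.88 in log2(FPKM + 1), which 8.04% of the genes tested exceeded. The ratio of *Fos* to *Fosb* was 1.44 in Lum3, 1.51 in Lum5 and between 2.30 and 3.11 in the other libraries, so the pair did not keep a constant ratio.

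*Jun* (ENSMUSG00000052684, chromosome 4, 95049034 to 95052222, minus strand), the main partner of FOS in AP-1, was at 524, 261 and 677 FPKM in Lum1, Lum2 and Lum3 and at 486 and 444 FPKM in Lum4 and Lum5. Its profile over the libraries was like that of *Fos*, with a root mean square difference of 0.20 between the centred log2 values. *Junb* (ENSMUSG00000052837, chromosome 8, 84974484 to 84978718, minus strand), a JUN family subunit with weaker activating capacity than JUN, was at 557, 343 and 462 FPKM in Lum1, Lum2 and Lum3 and at 481 and 541 FPKM in Lum4 and Lum5. *Jun* exceeded *Junb* by a ratio of 1.47 in Lum3, and the ratio was between 0.759 and 1.01 elsewhere. Over the 5 libraries the mean levels of *Jun* (478 ± 150 FPKM, SD, n = 5) and *Junb* (477 ± 84.5 FPKM) lay closer together than the spread of either. *Junb* shares exon positions with *Prdx2* on the other strand (mean 218 FPKM), *Jun* with *Junos*, *Zfp36* with *Gm44710* and *Dusp1* with *Ergic1* (mean 21.3 FPKM). A use of strand in the quantification is not stated in the sources used here, so reads from such a stretch cannot be told apart between the genes.

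*Egr1* (ENSMUSG00000038418), a zinc finger factor, was at 304, 151 and 227 FPKM in Lum1, Lum2 and Lum3 and at 248 and 291 FPKM in Lum4 and Lum5. *Ier2* (ENSMUSG00000053560, chromosome 8, 84661331 to 84662852, minus strand) read 311 FPKM in Lum1, 150 FPKM in Lum2, 207 FPKM in Lum3, 243 FPKM in Lum4 and 296 FPKM in Lum5. *Egr1* and *Ier2* were the most alike of the 45 pairs of members, with a root mean square difference of 0.058 between centred log2 values over 5 libraries, and their FPKM ratio stayed between 0.979 and 1.09. Both were highest in Lum1 and lowest in Lum2, and neither stood out in Lum3. *Fos* against *Egr1* did not keep such a ratio, which was 4.23 in Lum3 and between 1.83 and 2.71 in the others.

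*Atf3* (ENSMUSG00000026628, chromosome 1, 191170296 to 191218039, minus strand), a stress-induced member of the ATF/CREB family, was at 504, 230 and 478 FPKM in Lum1, Lum2 and Lum3 and at 422 and 549 FPKM in Lum4 and Lum5. Lum2 was lower than the next library by a ratio of 1.84, the widest such gap among the members. *Ier3* (ENSMUSG00000003541, chromosome 17, 35821684 to 35822923, plus strand), which has a role in cell survival under stress, was the lowest member by mean, at 135, 136 and 103 FPKM in Lum1, Lum2 and Lum3 and at 98.2 and 165 FPKM in Lum4 and Lum5. The 2 knockout-labelled libraries were its lowest and its highest, and it was one of the pair of members that were not lowest in Lum2. *Fosb* and *Ier3* were the least alike pair (root mean square difference 0.88).

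*Dusp1* (ENSMUSG00000024190, chromosome 17, 26505590 to 26562128, minus strand) and *Zfp36* (ENSMUSG00000044786, chromosome 7, 28376784 to 28380253, minus strand) stand for the arm that ends the response. *Dusp1* was at 158, 135 and 179 FPKM in Lum1, Lum2 and Lum3 and at 123 and 143 FPKM in Lum4 and Lum5, the narrowest spread of the 10 with a ratio of 1.45 between highest and lowest. *Zfp36* was at 493, 347 and 369 FPKM in Lum1, Lum2 and Lum3 and at 402 and 577 FPKM in Lum4 and Lum5. It was highest in Lum5, with Lum2 and Lum3 at the bottom. The order of the members by mean FPKM was *Fos* (612 ± 206, SD, n = 5), *Jun*, *Junb*, *Zfp36* (438 ± 95.6), *Atf3* (437 ± 125), *Fosb* (326 ± 210), *Egr1* (244 ± 60.8), *Ier2* (242 ± 65.7), *Dusp1* (148 ± 21.5) and *Ier3* (127 ± 27.6). Neighbours in this order differed by less than the larger of their SDs, except *Ier2* and *Dusp1*.

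**Figure D2:**
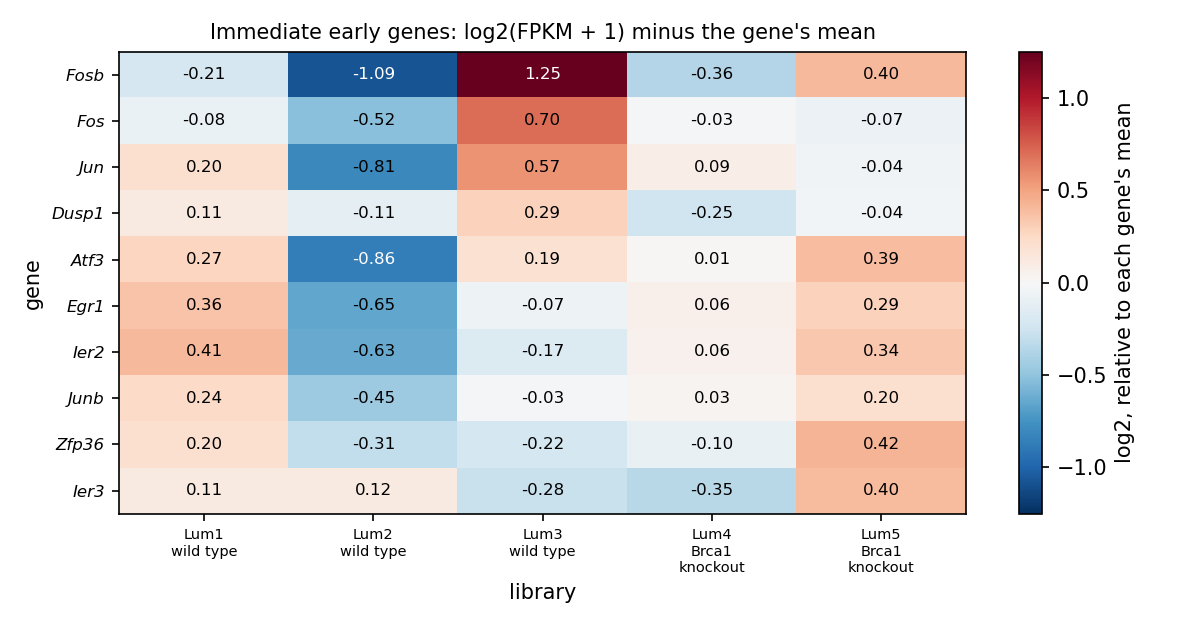
Log2(FPKM + 1) of each gene minus its own mean over the 5 libraries, red above and blue below the mean, with the value in each cell. The Lum3 column runs from 1.25 for *Fosb* to -0.28 for *Ier3*, whereas the Lum2 column is below 0 for each gene but *Ier3*.

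The members did not share a single order of libraries. *Fosb*, *Fos* and *Jun* were 1.25, 0.70 and 0.57 above their own mean in Lum3 on the log2 scale, while *Egr1*, *Ier2*, *Junb* and *Zfp36* were at -0.07, -0.17, -0.03 and -0.22 there. Lum2 was the lowest library for 8 of 10 members against 15.5% of the genes tested, and Lum3 was the highest for 4 of 10 against 18.5%. Lum3 was the lowest library for 51.9% of the genes tested and for 0 members. Median-of-ratios scaling, which raises Lum3 by dividing by a size factor of 0.839, left Lum2 lowest for 8 members and made Lum3 highest for 6, with *Junb* and *Atf3* joining. Quantile normalization left *Fos*, *Fosb*, *Jun* and *Dusp1* highest in Lum3 and put *Zfp36* lowest there, which left 7 members lowest in Lum2. The immune and fibroblast sums given above were highest in Lum2, where the members were low, and next highest in Lum3, where *Fos*, *Fosb* and *Jun* were high. The 8 basal markers summed to 140.3 FPKM in Lum2 and to 13.7 to 74.9 FPKM in the others. The nuclear RNAs *Malat1* and *Neat1* summed to 459.7 FPKM in Lum3 and to 209.6 to 244 FPKM in the others. The part of these in the levels of the members was not tested.

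The median SD of the members was 0.41 in log2(FPKM + 1), beside 0.30 over all genes tested and 0.32 over the 500 most abundant. The median distance from lowest to highest library was 1.02 for the members and 0.74 for all genes tested. Leaving out Lum2 lowered the distance for the members to 0.59, and a fall follows from Lum2 being lowest for 8 of them. The distance was 0.96 without Lum1, 0.88 without Lum3 and 1.02 without Lum4 or without Lum5. For all genes tested it was not computed with a library left out.

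The design asks next whether the genotype labels differ. No member passed the test, and 3 libraries against 2 leave wide intervals. In limma on log2(FPKM + 1), 0 of the 10 members passed an adjusted p of 0.05, and 0 of 11481 genes did (0%), with 372 genes at an unadjusted p under 0.05 (3.24%) and 0 members among them. The labels overlapped for each of the 10 members, whereas they did not overlap for 23.3% of the genes tested (17.5% with Brca1 knockout higher and 5.77% with it lower). On average 8 members were higher and 2 were lower under the knockout label, beside 65.5% of all genes tested that were higher, and the median log2 fold change was 0.12 for the members and 0.11 for all genes tested.

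Marker sums of several cell types did not overlap between the labels, although none of the marker genes that were tested passed. The 8 proliferation markers summed to 5.21 to 71.1 FPKM under the wild type label and to 103 to 139.9 FPKM under the knockout label, and each of the 8 was higher in both knockout-labelled libraries (limma adjusted p = 0.92 for each). The 7 mature luminal markers summed to 39.3 to 470 FPKM under the wild type label and to 18.8 to 29.0 FPKM under the knockout label, with all 7 lower on average and 4 without overlap. The 5 endothelial markers summed to 0.70 to 7.50 FPKM and to 0.14 to 0.52 FPKM, and the 4 adipocyte markers stayed at or below 0.198 FPKM throughout. Of these, 1 endothelial and 0 adipocyte markers reached the filter of a mean of 1 FPKM and were tested. The part of these genes and cells in the differences of the members was not tested.

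*Atf3* had the largest mean difference, 0.34 on the log2 scale with a standard error of 0.41 and a 95% interval from -0.69 to 1.36 (limma adjusted p = 0.93). *Ier2* was at 0.33 (standard error 0.35, interval -0.54 to 1.20) and *Egr1* at 0.30 (0.33, -0.54 to 1.14). *Dusp1* was the lowest at -0.24, with the narrowest interval, from -0.76 to 0.28. *Fosb* had the widest, from -1.76 to 1.82 around 0.03. *Zfp36* (0.27, interval -0.42 to 0.96) and *Junb* (0.20, -0.48 to 0.87) leaned upward and *Fos* (-0.08, -1.07 to 0.90), *Jun* (0.04, -1.06 to 1.13) and *Ier3* (0.05, -0.69 to 0.78) lay close to 0. The adjusted p-values of the members ran from 0.92 to 1.00 in limma. The exact permutation test (two-sided) gave p between 0.4 and 1 for the members, where 3 libraries against 2 allow no p below 0.2. Without Lum2 and Lum3, a setting chosen after seeing the data, Lum1 was the lone wild type-labelled library and was assumed to vary like the others. In that setting 0 members passed, 8 of the 10 differences were below 0, and *Fos* and *Fosb* were at 0.03 and 0.23. The number of genes called was 0 with all 5 libraries, 2 without Lum1, 14 without Lum4, 4 without Lum5 and 3 without Lum2 and Lum3, and 0 members were among them.

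**Figure D3:**
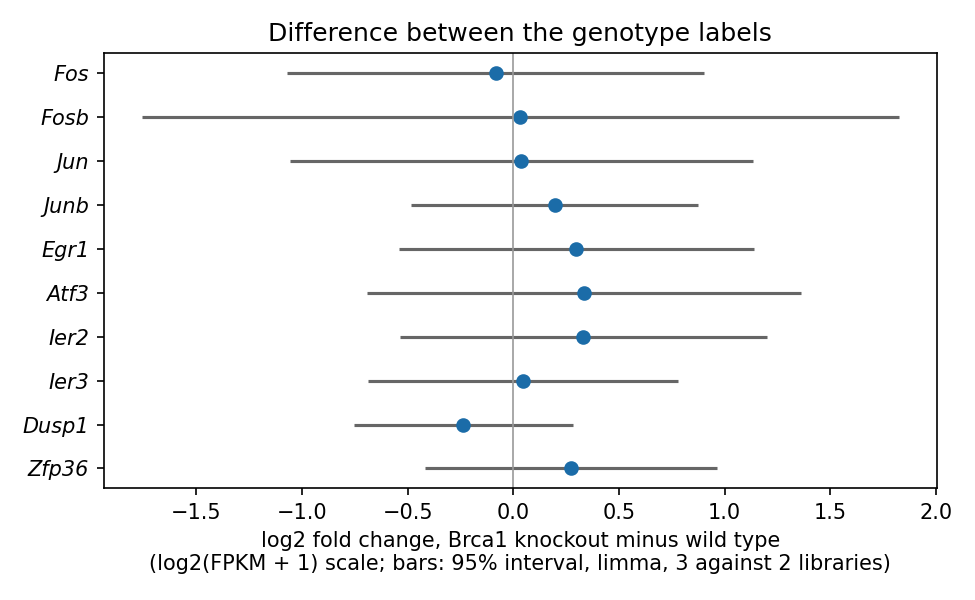
Log2 fold change of each gene between the labels (Brca1 knockout minus wild type, log2(FPKM + 1) scale) with the 95% interval from limma, 3 against 2 libraries. Each of the 10 intervals includes 0.

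The wider early response was read from 7 lists with 100 genes, all in the table, of which 98 passed the filter. None of the 98 passed the adjusted threshold in either direction, and the labels did not overlap for 9 higher and 7 lower genes, beside the 17.5% and 5.77% given above. Among the AP-1 partners *Jund*, the JUN family member with steady expression in many cells, was the most abundant, at 586, 424 and 787 FPKM in Lum1, Lum2 and Lum3 and at 495 and 621 FPKM in Lum4 and Lum5. Its order of libraries was that of Lum3 at the top and Lum2 at the bottom, as for *Fos*. *Fosl2*, another FOS family member, lay between 70.5 and 135 FPKM and *Maff*, a small MAF protein, between 81.9 and 143 FPKM. *Jund* (root mean square difference 0.15), *Cdkn1a* (0.15) and *Mafk* (0.16) were the 3 of the 98 list genes whose profile was nearest to the mean profile of the members, a choice made after the values were seen.

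In the list of other early response factors, *Cyr61*, a secreted matrix protein, was at 504, 513 and 679 FPKM in the wild type-labelled libraries and at 338 and 427 FPKM in the knockout-labelled ones. Its labels did not overlap, but its log2 fold change of -0.56 (standard error 0.24) had a limma adjusted p of 0.92. *Klf6*, a zinc finger factor, was the steadiest of the leading genes, between 405 and 555 FPKM, and *Gadd45g*, which acts in growth arrest after stress, lay between 172 and 340 FPKM. Of the 25 genes in this list, 11 were lowest in Lum2 and 9 highest in Lum3, beside 15.5% and 18.5% of all genes tested. *Egr3*, a relative of *Egr1* named after its values were seen, was at 15.3, 5.29 and 13.3 FPKM in Lum1, Lum2 and Lum3 and at 28.6 and 26.6 FPKM in Lum4 and Lum5 (limma adjusted p = 0.92).

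The feedback list held MAP kinase phosphatases, Sprouty proteins and relatives of *Zfp36*. *Dusp5*, a nuclear phosphatase of ERK, lay between 136 (Lum2) and 276 FPKM (Lum5), and *Zfp36l1* between 90.5 (Lum3) and 159 FPKM (Lum5). *Zfp36l2*, which like ZFP36 destabilizes AU-rich mRNAs, was at 466, 478 and 306 FPKM in Lum1, Lum2 and Lum3 and at 549 and 603 FPKM in Lum4 and Lum5, with no overlap between the labels and a limma adjusted p of 0.92. Of 12 tested genes of this list, 7 were lowest in Lum2 and 6 highest in Lum5, beside 15.5% and 21.2% of all genes tested. The median log2 fold change of the list was 0.29. The kinases and factors that switch immediate early genes on varied less, with a median SD of 0.20. *Srf*, the serum response factor that binds the CArG box, was at 30.5, 23.7 and 49.2 FPKM in Lum1, Lum2 and Lum3 and at 32.0 and 43.4 FPKM in Lum4 and Lum5, whereas *Mapk3*, which encodes ERK1, stayed between 37.1 and 47.4 FPKM and *Map2k2* between 33.0 and 43.7 FPKM.

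The other stress lists are given by library without a test between lists. Of 13 heat shock genes 12 were highest in Lum1 and 0 in Lum3, beside 24.2% and 18.5% of all genes tested. *Hspa8*, a constitutive chaperone, was at 2488, 1851 and 1559 FPKM in Lum1, Lum2 and Lum3 and at 2180 and 1653 FPKM in Lum4 and Lum5. *Hspa1b*, an inducible chaperone, read 1366 FPKM in Lum1, 703 FPKM in Lum2, 641 FPKM in Lum3, 951 FPKM in Lum4 and 440 FPKM in Lum5. *Hspa1a*, named for being a near-identical copy, was at 1138, 575, 517, 738 and 359 FPKM in the same order, so the split between the pair is uncertain. *Hsp90ab1* lay between 978 and 1339 FPKM. The NF-kB list was highest on balance in Lum2, at 0.35 above the gene means (median of 12 genes), where the members were at -0.58. There *Cxcl2*, a chemokine gene named after its values were seen, was at 160 FPKM against 16.1 to 35.0 FPKM elsewhere. Lum2 also had the highest immune marker sum, and the part of immune cells in this level was not tested. Of the 12 genes of the list, 4 were highest in Lum2, 4 in Lum5, 3 in Lum3 and 1 in Lum4. The shares of all genes tested were 16.0%, 21.2%, 18.5% and 20.1%. *Nfkbia*, the inhibitor of NF-kB, was highest in Lum5 (619 FPKM) and lowest in Lum3 (313 FPKM), *Cebpb* lay between 284 and 410 FPKM, and *Cebpd* between 99.8 and 213 FPKM. In the ATF4 list, 6 of 10 genes were lowest in Lum3, close to the 51.9% of all genes tested. *Atf4* lay between 245 and 332 FPKM, *Ppp1r15a*, which restores translation after stress, between 79.3 and 102 FPKM, and *Vegfa* between 52.1 and 74.6 FPKM.

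**Figure D4:**
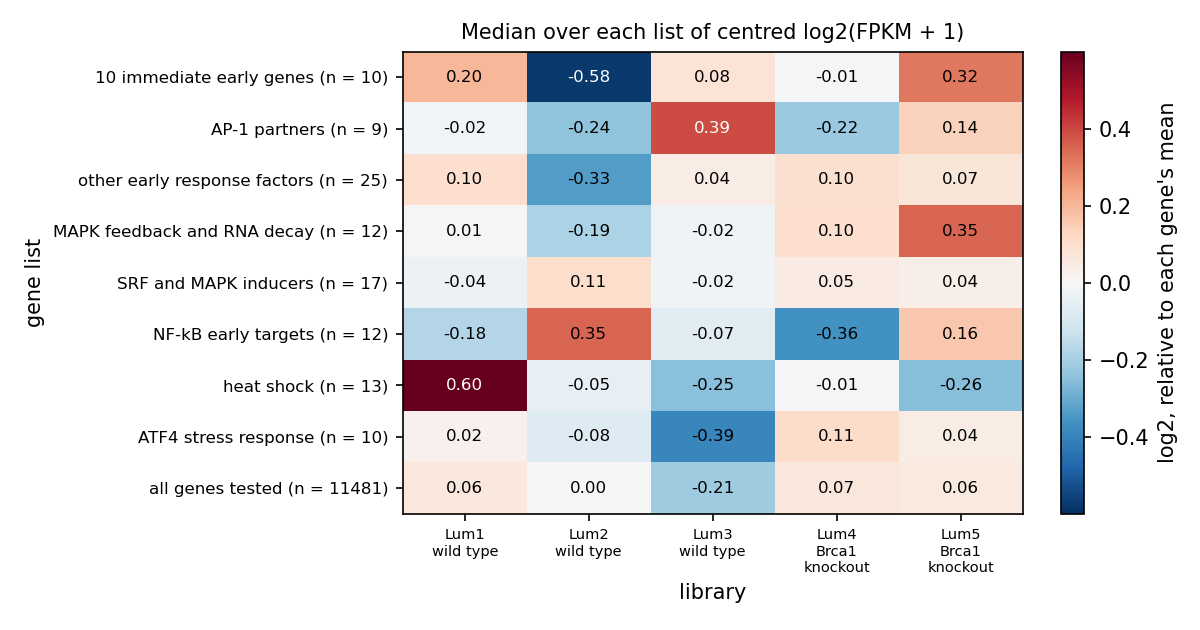
Median over each list of log2(FPKM + 1) minus the gene's mean, by library, with the number of tested genes per list. The 10 immediate early genes are at -0.58 in Lum2 and 0.32 in Lum5, the heat shock list is at 0.60 in Lum1 and the NF-kB list at 0.35 in Lum2, beside -0.21 to 0.07 for all genes tested.

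Outside these lists, 2427 genes that were no members had a mean of at least 1 FPKM and an SD of at least 0.5. The 6 whose centred profile was nearest to the mean profile of the members over the 5 libraries were *Helz2* (root mean square difference 0.24), *Galnt11* (0.26), *Ddx26b* (0.26), *Gm7334* (0.27), *Hdac11* (0.28) and *Zscan18* (0.28). *Helz2* was at 5.67, 2.60 and 6.09 FPKM in Lum1, Lum2 and Lum3 and at 3.40 and 7.91 FPKM in Lum4 and Lum5. *Gm7334* was at 48.5, 19.3 and 35.0 FPKM in Lum1, Lum2 and Lum3 and at 41.2 and 49.6 FPKM in Lum4 and Lum5. Both were lowest in Lum2 and highest in Lum5. The 6 are a description over 5 libraries, and a gene that hardly varied can come as near. *Hsf1* of the heat shock list, with an SD of 0.068, was at 0.28 from the same mean profile. The 6 cannot be ranked against the list genes above, for which no SD minimum was set.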

How the data were processed

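Bulk RNA-seq of 5 libraries of sorted mouse mammary luminal cells was analysed, 3 labelled wild type and 2 labelled Brca1 knockout. The authors aligned reads to mm10 and deposited FPKM values made with Cufflinks 2.2.1. The submitters' processing notes also name Trimmomatic 0.35 and TopHat2 2.0.13, and the paper's methods name a later TopHat. The annotation is not given in the sources used here. The 24346 rows hold no counts. Removing 27 rows whose names a spreadsheet had turned into dates left 24319 genes. Read totals are unknown, so relative depth was inferred from the steps between low FPKM values, using 873 genes with a single transcript over 3000 bases in GENCODE M21 (GRCm38), and for Lum2 the estimate may be off by a whole factor. Low values did not come out as whole reads often enough for a count model.

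Values were analysed as log2(FPKM + 1), which understates changes of low genes. The labels were compared with limma 3.58.1 (lmFit, eBayes with trend, R 4.3.3) on the 11481 genes whose mean reached 1 FPKM, Benjamini-Hochberg adjusted at 0.05, and single genes also with an exact permutation test (scipy 1.17.1, Python 3.11.15). Data of 11481 genes were simulated in the layout of Brca1 knockout minus wild type. Of 200 genes changed by 1 (log2), 99% were recovered at an SD of 0.2 and 4% at an SD of 0.5. Each simulated gene had the same SD, whereas the SDs of the real genes differ, so these shares are not the power in these data. The median SD was 0.30 over the genes tested and 0.41 for the members. Intervals cover 95%. Nothing says that the libraries came from separate mice, so p-values measure the spread between these libraries, which may be technical. The members, the lists (AP-1 partners, other early response factors, MAPK feedback and RNA decay, SRF and MAPK inducers, NF-kB early targets, heat shock, ATF4 stress response, and the cell type markers) and the tests were chosen with earlier results of these data known. Genes named are the 10 members, *Brca1*, the 3 most abundant genes of each list and the 6 nearest profiles. *Egr3*, *Cxcl2*, *Hspa1a*, *Cdkn1a*, *Mafk*, *Hsf1* and the marker genes named fall outside this rule and were chosen after their values were seen. Alternatives were a pseudocount of 0.1, 2 other scalings, other filters and moderation, and each library left out. Promoters came from RefSeq (GRCm38.p6).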

Additional observations from a re-analysis of the deposited data

How the results depend on the processing

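The 10 members gave 130 differences between the labels under alternative settings, of which 0 passed the threshold (smallest limma adjusted p = 0.62). Of the 13 settings, 4 (the filters and the moderation) cannot move a fold change. Of the 90 differences under the other settings 70 kept their direction and 20 turned the other way. Over these settings *Dusp1* alone kept its direction in each. *Junb*, *Egr1*, *Ier2* and *Zfp36* turned only in the unplanned setting without Lum2 and Lum3. With median-of-ratios scaling *Fosb* was at -0.10, *Jun* at -0.097 and *Ier3* at -0.088 (log2). With 1 library left out at a time, *Fos* ran from -0.36 to 0.25 (0.25 without Lum3). *Fosb* ran from -0.50 to 0.67 and was below 0 without Lum1 (-0.064), Lum2 (-0.50) and Lum5 (-0.35). *Jun* ran from -0.36 to 0.33 and was below 0 without Lum2 (-0.36) and Lum4 (-0.026). *Atf3* ran from -0.028 (without Lum2) to 0.54, and *Ier3* from -0.33 (without Lum5) to 0.42, with -0.086 without Lum3. Without Lum2 and Lum3 together, a setting chosen after seeing the data, *Fos* was at 0.029, *Jun* at -0.17, *Junb* at -0.12, *Egr1* at -0.18, *Atf3* at -0.067, *Ier2* at -0.21, *Ier3* at -0.083 and *Zfp36* at -0.033. The cause was not tested. The number of genes called was 0 under each setting with all 5 libraries, ran from 0 to 14 with 1 library left out and was 3 without Lum2 and Lum3. Where a label was left with 1 library (without Lum4, without Lum5, or without Lum2 and Lum3), that library was assumed to vary like the others. The difference of the members' median between the labels was 0.20, from -0.17 (without Lum2) to 0.41 (without Lum3) with 1 library left out, 0.07 with median-of-ratios scaling, 0.31 with quantile normalization and -0.13 without Lum2 and Lum3. No paired analysis was possible because the sources used here give no pairing of libraries between the labels.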
